A study of Mus musculus with 12 samples.

Results

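The genes described here are Maf, Maff, Mafg and Mafk, the 4 Maf transcription factor genes whose symbols were taken from the deposited gene table. They are 4 of 55487 genes in that table, and all 4 passed the filter on low counts that left 14618 genes for testing. They were measured by bulk RNA sequencing of mouse monocytes labelled Ly6C+, in 12 libraries that form 4 groups of 3 by their titles. The WT, Mixed and KO groups came from fetal liver and the BM group from bone marrow. The genotype label was WT for the WT, Mixed and BM libraries and KO for the KO libraries. By their labels WT 1 and the 3 KO libraries were from stage E13.5 and WT 2, WT 3 and the 3 Mixed libraries from E15.5, while for BM no age was stated. The labels give neither the meaning of Mixed nor the allele of the KO libraries. All KO libraries were from E13.5 and all Mixed libraries from E15.5, so genotype and stage cannot be told apart between these groups. The design text of the series names a Z165KO line and tissue macrophages, but the sample labels name monocytes, and they do not tie the KO libraries to that line. Separate animals or litters are not mentioned for replicates, so the p-values measure the spread between these libraries, which may be technical.

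Maf proteins bind DNA as dimers through a basic region and a leucine zipper. Maf, also called cMaf, is a large Maf: it carries an activation domain and is known as a regulator of macrophages and of T cells. Maff, Mafg and Mafk are small Mafs, which lack such a domain. They repress as homodimers, and they activate or repress according to the partner they pair with, which can be NRF2 (encoded by Nfe2l2), p45 NF-E2 (Nfe2) or the repressors BACH1 and BACH2. The series title links cMaf to Zeb2, which encodes a transcriptional repressor needed by several myeloid lineages.

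Maf lies on the minus strand of chromosome 8 (115682942 to 115707794, GRCm38), with an antisense gene, Gm15655, inside it that had at most 8.47 counts in a library. Mafg lies on the minus strand of chromosome 11 (120625117 to 120633600) and shares 124 bases at its 3' end with Sirt7, which is transcribed from the same strand and had 850 to 2039 counts per library, so the division of reads between them is uncertain there. Mafk lies on the plus strand of chromosome 5 (139791513 to 139802653) and overlaps Tmem184a, a gene of the opposite strand with at most 3.04 counts. Maff lies on the plus strand of chromosome 15 (79346621 to 79359076) and overlaps no other annotated gene.

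The upstream sequences of the 3 small Mafs are shown because small Maf genes are known to carry sites for the dimers their own products form, and because Mafg and Mafk were both higher in bone marrow. They are the 250 bases before a RefSeq transcription start (GRCm38.p6), written 5' to 3' on the gene's strand. Capitals mark matches on either strand to TGACNNNGC, the core of the antioxidant response element that NRF2 and small Mafs bind, and to TGCTGA, the site of a Maf monomer. The Maff sequence is the one of 3 annotated starts that held a match.
Mafg, chr11:120633548-120633797, minus strand: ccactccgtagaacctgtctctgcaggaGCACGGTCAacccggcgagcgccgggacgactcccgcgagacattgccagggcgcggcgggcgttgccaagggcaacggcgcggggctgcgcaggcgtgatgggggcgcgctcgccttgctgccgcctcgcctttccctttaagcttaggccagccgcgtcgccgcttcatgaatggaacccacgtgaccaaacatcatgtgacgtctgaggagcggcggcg
Mafk, chr5:139791286-139791535, plus strand: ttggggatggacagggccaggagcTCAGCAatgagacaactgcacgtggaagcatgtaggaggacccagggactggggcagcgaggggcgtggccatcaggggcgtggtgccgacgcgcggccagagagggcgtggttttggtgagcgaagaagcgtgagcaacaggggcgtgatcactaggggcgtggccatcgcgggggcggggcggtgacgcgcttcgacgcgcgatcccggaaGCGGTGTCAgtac
Maff, chr15:79346371-79346620, plus strand: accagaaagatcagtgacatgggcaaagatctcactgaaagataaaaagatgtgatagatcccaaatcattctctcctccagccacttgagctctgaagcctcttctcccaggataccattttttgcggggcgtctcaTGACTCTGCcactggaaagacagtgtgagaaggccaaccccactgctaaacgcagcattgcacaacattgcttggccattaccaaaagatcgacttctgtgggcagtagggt
The antioxidant core was present in 3 of the 5 windows of the small Maf genes, the single windows of Mafg and Mafk and 1 of the 3 of Maff, and 10.2% of the 32851 windows of this length in the RefSeq table held it. TGCTGA was present in the Mafk window, as against 16.1% of all windows. None of the 5 small Maf windows and none of the 4 windows of Zeb2 held CAGGTG on either strand, the E-box that ZEB proteins bind, which 17.2% of all windows held. The Zeb2 windows held neither of the other motifs. A match in such a window is a description of its letters and not evidence of binding.

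The 4 genes differed widely in level. Compared per transcript length, on the authors' TPM scale, Mafg was the most abundant in every library, at 36.6 TPM on average in WT, 36.8 in Mixed, 26.8 in KO and 45.6 in BM. Mafk followed, at 6.78, 6.98, 6.41 and 13.1 TPM in the same order. Mafg made up 67.8 to 79% of the summed TPM of the 4 genes in every library. Maf averaged 4.1 TPM in WT, 3.12 in Mixed and 2.9 in KO, below Mafk in every fetal liver library, and 0.93 in BM. Maff stayed between 0.42 and 1.71 TPM, below Maf in every fetal liver library, while in bone marrow the ranges of Maf (0.706 to 1.27) and Maff (0.42 to 1.21) overlapped. Maf accounted for 8.46% of the summed TPM in WT (SD 0.596, n = 3) and for 1.54% in BM (SD 0.496, n = 3).

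Library depth was 17384956 to 24473502 counts, and of the genes that mark Ly6C+ monocytes Ly6c2 was at 490 to 1990 CPM, Ccr2 at 640 to 2240 CPM and Csf1r at 353 to 1190 CPM over the 12 libraries. All 12 listed classical monocyte genes summed to 11200 to 12700 CPM in WT, 14700 to 14800 in Mixed, 8050 to 9060 in KO and 35300 to 36000 in BM. In KO against WT 5 of them were higher and 7 lower, among them F13a1 by 6.21-fold, Vcan by 5.01-fold and Cd14 by 3.03-fold, and in BM against WT 9 were higher and 2 lower. Over all tested genes 18.2% were higher and 19.9% lower in KO than in WT, and 32.1% higher and 31.9% lower in BM than in WT. CPM here is the count corrected for library size after TMM scaling. Zeb2 was at 20.1 to 23.8 CPM in the KO libraries and 141 to 165 in WT. Genes listed as markers of other cells were also present and differed between groups. Summed over the markers listed for each type, conventional dendritic cell genes were at 36.2 to 48.8 CPM in WT, 31.9 to 37.3 in Mixed, 829 to 882 in KO and 230 to 264 in BM. Most of the KO sum was H2-Aa and H2-Ab1, at 359 and 303 CPM on average. By edgeR 8 of the 9 were higher in KO than in WT and 1 was lower, Cd209a (0.225 against 8.52 CPM). In BM against WT 5 were higher and 1 lower. Neutrophil genes were at 4400 to 6280 CPM in WT, 3510 to 3810 in Mixed, 10900 to 13800 in KO and 738 to 916 in BM. Much of this sum was S100a8 and S100a9, at 3060 and 902 CPM on average in WT and 188 and 71.4 in BM. By edgeR 6 of the 10 were higher and 0 lower in KO than in WT, and 1 was higher and 7 lower in BM than in WT. Between BM and Mixed 3 were higher and 3 lower in BM, where 29.5% of all tested genes were higher and 28.9% lower. Erythroid genes were at 667 to 1930 CPM in fetal liver and 14.8 to 31.7 in BM. In bulk RNA, fewer cells of a type and less RNA per cell cannot be told apart. The part of other cells in the differences below was not tested.

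**Figure D1:**
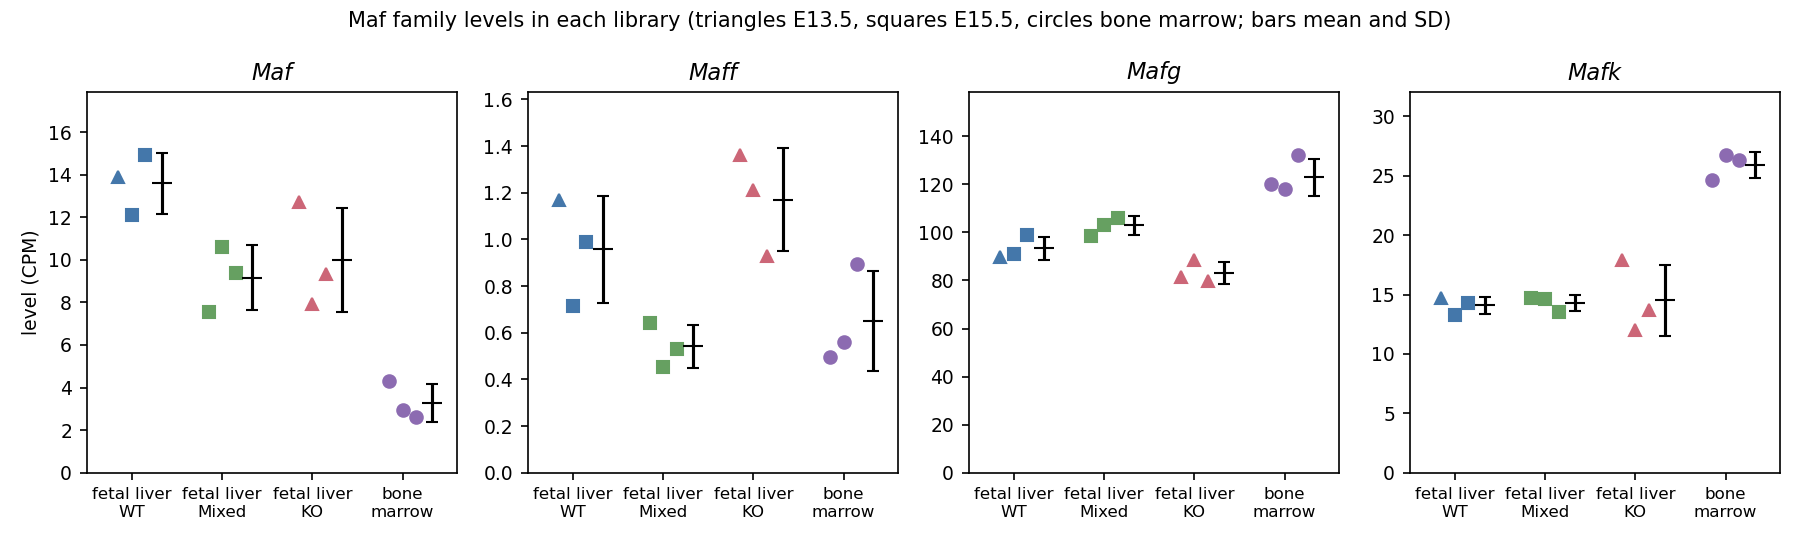
Level in CPM (linear axes from 0) of Maf, Maff, Mafg and Mafk in each of the 12 libraries, with triangles for E13.5, squares for E15.5 and circles for bone marrow; bars give the mean and SD of 3 libraries. Maf was lowest in bone marrow (2.63 to 4.29 CPM), where Mafk was highest (24.6 to 26.7 CPM).

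Maf was lower in bone marrow monocytes than in each of the 3 fetal liver groups. It was at 13.9, 12.1 and 14.9 CPM in WT 1 to 3, at 7.55, 10.6 and 9.38 CPM in Mixed 1 to 3, at 12.7, 7.94 and 9.34 CPM in KO 1 to 3, and at 4.29, 2.94 and 2.63 CPM in BM 1 to 3. The bone marrow libraries lay below all 9 fetal liver libraries, Mixed lay below WT without overlap, and KO overlapped both. Against WT, Maf was 4.17-fold lower in BM (log2 fold change -2.06, SE 0.2, edgeR quasi-likelihood test, adjusted p = 1.18e-08), a comparison in which 64% of all tested genes were called at an adjusted p under 0.05. It was 2.8-fold lower than in Mixed (adjusted p = 2.06e-06) and 3.06-fold lower than in KO (adjusted p = 5.22e-07), where edgeR called 58.4% and 63.8% of tested genes. These 3 calls held under all 19 alternatives tried for each, with log2 fold changes of -2.29 to -1.01. The 3 comparisons share the BM libraries and are not independent of each other.

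Many genes of tissue macrophages, in which Maf is known to be expressed, were also lower in bone marrow than in WT. Of 19 listed macrophage genes 16 were tested, and 10 were lower and 3 higher in BM than in WT, with a median log2 fold change of -3.15 against 0 over all tested genes. There 31.9% of tested genes were lower and 32.1% higher. In Mixed against WT 2 of the 16 were higher and 0 lower (8.07% of tested genes called), with a median of -0.68 against -0.01. In KO against WT 0 were higher and 2 lower (38.1% called), with a median of -0.64 against -0.03. All 19 summed to 304 to 388 CPM in WT, 364 to 374 in Mixed, 282 to 325 in KO and 358 to 371 in BM. That full sum was not lower in BM than in WT, and Adgre1 averaged 315 CPM in BM against 185 in WT. Summed without Adgre1, which monocytes express too, the other 18 were at 136 to 184 CPM in WT, 136 to 140 in Mixed, 101 to 136 in KO and 49.2 to 51.9 in BM. Axl was a large part of this sum in fetal liver, at 73.1 CPM on average in WT, 87.6 in Mixed and 66 in KO. It was called higher in Mixed than in WT. Vsig4 had no count in any library, and Marco and Clec4f had none in BM. The 3 genes of the list that were higher in BM than in WT were Adgre1 and the scavenger and mannose receptor genes Cd163, at 4.73 to 5.64 CPM in BM and at most 0.0894 in WT, and Mrc1, at 6.32 to 9.47 CPM in BM and 2.14 to 5.21 in WT. Cd163 and Mrc1 are named after their values were seen. The complement genes C1qa, C1qb and C1qc, which mark macrophages, summed to 29.5 to 53.2 CPM in WT, 23.9 to 26.4 in Mixed, 18.8 to 36.1 in KO and 2.28 to 2.75 in BM.

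Within each of the 4 groups, the libraries fell in the same order for Maf as for this C1q sum. KO 1, with the highest Maf of its group, had a C1q sum of 36.1 CPM against 18.8 and 20.2 in KO 2 and KO 3, and WT 3, with the highest Maf of all libraries, had 53.2 CPM against 30.1 and 29.5 in WT 1 and WT 2. This relation was chosen after the values were seen. Taken singly, C1qb kept the order of Maf in 3 groups and C1qa and C1qc in 1 each, and the 18-gene sum did so in 2. Among 14617 other tested genes 16 (0.109%) did so in all 4. That share of single genes does not measure how unusual a sum picked afterwards is. Some steps of the order were small, as between BM 1 and BM 2, with C1q sums of 2.75 and 2.66 CPM. The part of macrophage RNA in the Maf differences was not tested.

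**Figure D2:**
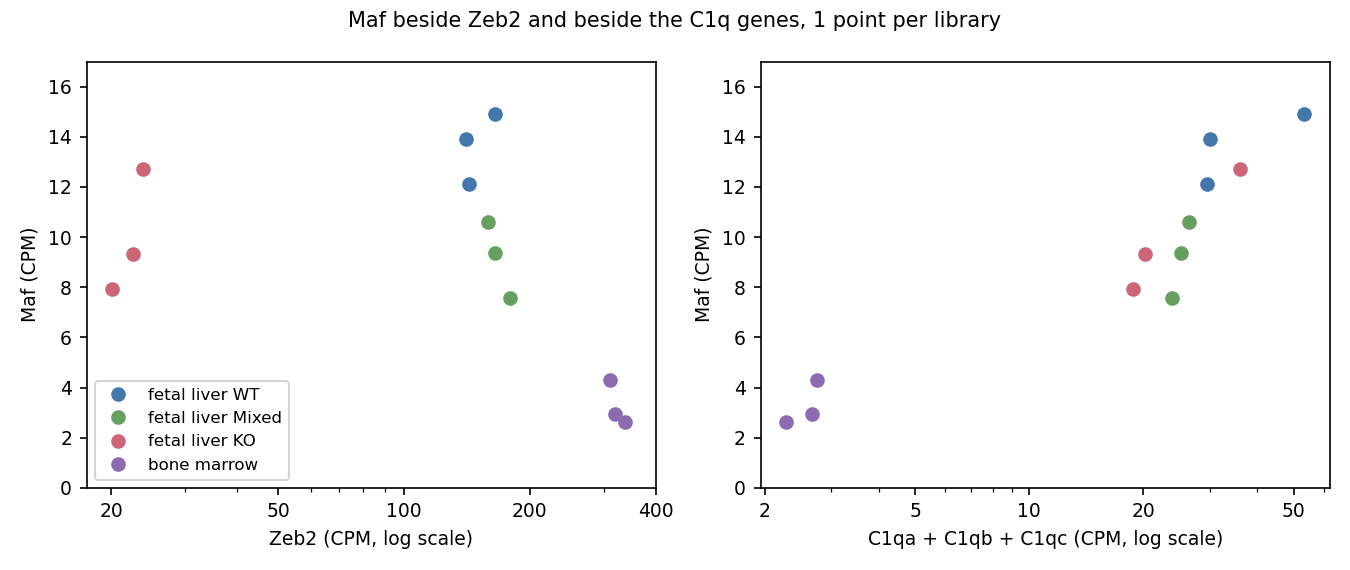
Maf in CPM (linear axis from 0) against Zeb2 (left) and the sum of C1qa, C1qb and C1qc (right), both in CPM on log axes, with 1 point per library coloured by group. KO libraries had Maf of 7.94 to 12.7 CPM at Zeb2 of 20.1 to 23.8 CPM, and bone marrow libraries had the lowest Maf and the highest Zeb2.

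Set beside Zeb2, Maf did not keep a common order over the groups. In KO, where Zeb2 was 6.75-fold lower than in WT (log2 -2.75, SE 0.0771, edgeR adjusted p = 3.95e-17), Maf averaged 9.99 ± 2.44 CPM (SD, n = 3) against 13.6 ± 1.43 in WT. In bone marrow, where Zeb2 was 2.16-fold higher than in WT (adjusted p = 4.68e-12), Maf was at its lowest, 3.28 ± 0.882 CPM. Over WT, Mixed and BM, without KO, the averages ran in opposite order: 150, 167 and 323 CPM for Zeb2 and 13.6, 9.16 and 3.28 CPM for Maf. Between Mixed and WT neither gene was called by edgeR. Zeb2 has an antisense gene, Zeb2os, within it, so some of its counts are uncertain in libraries that do not mark strand.

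Whether Maf differed between KO and WT was not settled by these libraries. The log2 fold change was -0.45 (SE 0.179, unadjusted 95% interval -0.82 to -0.07), and edgeR's adjusted p of 0.0549 missed the threshold, while 38.1% of tested genes were called. Of 20 alternatives 5 called Maf lower in KO, with adjusted p from 0.00884 to 0.23. Single KO libraries moved it in both directions: the log2 fold change was -0.66 without KO 1 (adjusted p = 0.00884) and -0.31 without KO 2 (adjusted p = 0.23). The fits without BM 1 and without Mixed 1 also gave a call (adjusted p = 0.0366 and 0.0479). At E13.5 alone, the KO libraries (7.94 to 12.7 CPM) all lay below the single WT library of that stage (13.9 CPM). With the stage label as a covariate the log2 fold change was -0.45, but that fit rests on the same WT library and is not a separate check.

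Between Mixed and WT the difference of Maf was of like uncertainty. Its log2 fold change was -0.57 (SE 0.18, unadjusted 95% interval -0.95 to -0.2, adjusted p = 0.0539 by edgeR), in a comparison with 8.07% of tested genes called. Of 20 alternatives 8 called it lower in Mixed, with adjusted p from 0.00893 to 0.392, among them the fits without KO 1, KO 2, BM 1 or Mixed 2 (0.0332 to 0.0443). KO and Mixed, both set against WT in these comparisons, share its libraries. Set against each other they had a log2 fold change of 0.13 with an interval of -0.25 to 0.51, so a difference of up to 1.42-fold in one direction was within the interval (adjusted p = 0.635). In that comparison 36.7% of tested genes were called.

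Mafg, the predominant small Maf, was highest in bone marrow and lowest in KO. It was at 89.8, 91.2 and 98.9 CPM in WT 1 to 3, 98.5, 103 and 106 CPM in Mixed, 81.6, 88.4 and 79.6 CPM in KO, and 120, 118 and 132 CPM in BM. The groups overlapped only between WT and Mixed, but the steps between the fetal liver groups were small. Against WT, Mafg was 1.32-fold higher in BM (log2 0.40, SE 0.0639, edgeR adjusted p = 1.03e-05), and against KO 1.48-fold higher (adjusted p = 8.15e-08). Against Mixed it was 1.2-fold higher in BM (adjusted p = 0.00115).

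In KO, Mafg was 1.24-fold lower than in Mixed (log2 -0.31, SE 0.0642, edgeR adjusted p = 0.000629) and 1.12-fold lower than in WT (log2 -0.17, SE 0.0644, adjusted p = 0.0454). The first of these calls was lost with stage as a covariate and under no other of the 20 alternatives (adjusted p = 0.243). The second was weak: 9 of 20 alternatives kept it, over adjusted p from 0.000144 to 0.491. It was lost without KO 1, KO 3, WT 2, WT 3, BM 2 or Mixed 3 (adjusted p = 0.0509 to 0.169). With the stage covariate, a fit that rests on WT 1 for KO, the log2 fold change was -0.09. Between Mixed and WT it was not called (log2 0.14, unadjusted 95% interval 0.01 to 0.27, adjusted p = 0.201).

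The size of the KO difference of Mafg depended on the scale. On the authors' TPM, KO libraries were at 26.5 to 26.9 and WT libraries at 35 to 37.6, and limma on log2(TPM + 1) gave -0.44 with an adjusted p of 0.000148. On that scale the median of all genes was itself at -0.14, which leaves -0.30 relative to it. On counts the median was at -0.03, which leaves -0.14. The counts that corresponded to 1 TPM of Mafg, after a correction per library from 752 genes with a single transcript, were 0.863 to 0.951 of the mean of the 12 libraries in WT and 0.994 to 1.044 in KO. That log2 shift of 0.15 was reached or passed, in either direction, by 6.19% of 8478 genes with at least 100 counts in every library. Such a ratio follows the effective transcript length that the authors' estimate used.

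Mafk separated bone marrow from all fetal liver libraries. It was at 14.7, 13.3 and 14.3 CPM in WT 1 to 3, at 14.7 and 14.6 CPM in Mixed 1 and 2 with a mean of 14.3 ± 0.653 over the 3 Mixed libraries (SD), at 17.9, 12 and 13.7 CPM in KO and 24.6, 26.7 and 26.3 CPM in BM. The lowest bone marrow library lay above the highest fetal liver library, which was KO 1. Mafk was 1.84-fold higher in BM than in WT (log2 0.88, SE 0.12, edgeR adjusted p = 1.41e-06), 1.81-fold higher than in Mixed (adjusted p = 2.23e-06) and 1.78-fold higher than in KO (adjusted p = 2.87e-06). All 19 alternatives kept each of these 3 calls.

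Among the fetal liver groups Mafk was not called in any comparison. The unadjusted 95% interval of its log2 fold change was -0.21 to 0.3 for KO against WT (adjusted p = 0.802), -0.24 to 0.28 for Mixed against WT (adjusted p = 0.947) and -0.23 to 0.28 for KO against Mixed (adjusted p = 0.888). A change of up to 1.23-fold upward in KO was therefore within the interval. Its direction in KO turned without KO 1 and on the TPM scale, where the log2 fold changes against WT were -0.13 and, at pseudocounts of 1 and 0.1, -0.09 and -0.11. On TPM the median of all genes was itself at -0.14 and -0.17. Relative to it Mafk was at 0.05 and 0.06, the same direction as on counts.

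Immediate early and stress genes also set bone marrow apart. Of 15 such genes, a list that includes Klf6 and Nr4a1, 13 were higher and 2 lower in BM than in WT, with a median log2 fold change of 2.05 against 0 over all tested genes. Of those, 32.1% were higher and 31.9% lower in BM. They summed to 500 to 674 CPM in WT and 1690 to 2390 CPM in BM. The heat shock gene Hspa1a was 22.1-fold higher in BM (adjusted p = 0.000134), Nr4a1 9.71-fold (adjusted p = 6.24e-16) and Dusp1, a phosphatase that ends MAP kinase signalling, 9.48-fold (adjusted p = 0.000753). The part of this response in the Mafk and Mafg differences was not tested.

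Maff, a small Maf known to be induced by stress and inflammatory signals, was near the limit of measurement. It had 21, 16 and 21 counts in WT, 14, 10 and 11 in Mixed, 30, 23 and 22 in KO and 9, 12 and 18 in BM, which made 0.455 to 1.36 CPM over all libraries. All KO libraries lay above all Mixed libraries and, narrowly, above all BM libraries, while WT overlapped KO and BM. It was 2.14-fold higher in KO than in Mixed (log2 1.10, SE 0.405, edgeR adjusted p = 0.038). Of 20 alternatives 10 kept that call, over adjusted p from 0.0307 to 0.609, and it was lost without KO 1, KO 2 or any of the Mixed libraries (adjusted p = 0.0604 to 0.13). The unadjusted 95% interval was wide, from 1.19-fold to 3.84-fold.

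In the other 5 comparisons Maff was not called, with adjusted p of 0.0739 for BM against KO (log2 -0.84, SE 0.401) and of 0.25 to 0.626 for the rest. Without BM 3 the difference between BM and KO was called (log2 -1.13, adjusted p = 0.0427). Its TPM values could not be read finely. The counts that corresponded to 1 TPM of Maff ranged from 0.734 to 1.411 of their mean over the 12 libraries, against 0.962 to 1.022 for Mafk. WT 1 had the highest TPM of Maff, 1.71, from the same 21 counts that gave 0.763 TPM in WT 3.

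**Figure D3:**
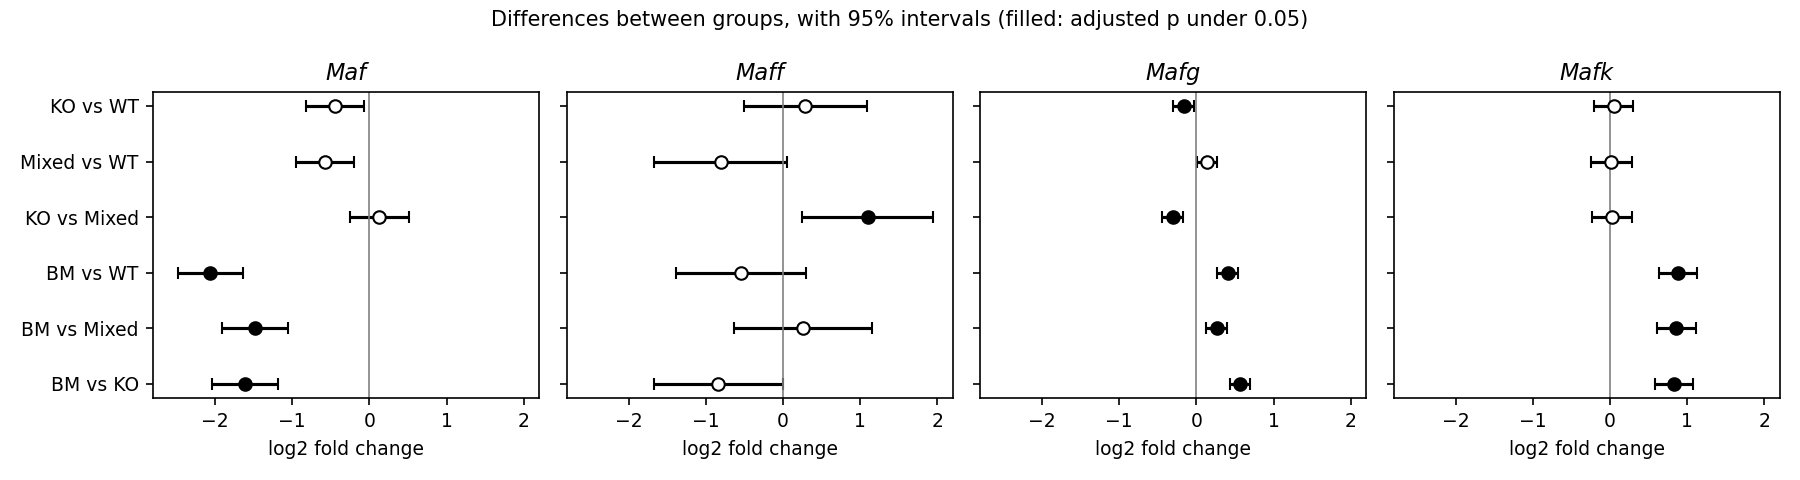
Log2 fold change of each gene in the 6 comparisons (first group over second), with unadjusted 95% intervals from the edgeR fit to 12 libraries; filled points had an adjusted p under 0.05. Maf was lower and Mafg and Mafk higher in all 3 comparisons of bone marrow with fetal liver, at log2 fold changes from -2.06 to 0.88.

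In counts of calls, 3 of the 4 genes were called between BM and each fetal liver group, 2 higher and 1 lower in BM each time. Against a background of 64%, 58.4% and 63.8% of tested genes called, that share does not stand out. Of all tested genes, 32.1% were higher and 31.9% lower in BM than in WT, 29.5% higher and 28.9% lower than in Mixed, and 31.8% higher and 32% lower than in KO. Between KO and Mixed 2 of 4 were called, Maff higher and Mafg lower in KO, where 18.2% of tested genes were higher and 18.5% lower. Between KO and WT 1 was called, Mafg, lower in KO, where 18.2% of tested genes were higher and 19.9% lower. Between Mixed and WT edgeR called 0 of the 4, where 4.21% of tested genes were higher and 3.87% lower. In that comparison Maf and Mafg had unadjusted p-values of 0.00459 and 0.0415, and DESeq2 called 1 gene, Maf. Mafg was called in 5 of its 6 comparisons, Maf and Mafk in 3 and Maff in 1.

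The partners of the small Mafs were measured alongside them. Of 7 listed genes (5 partners of the CNC and BACH families beside Nfe2l3, which had 0 to 0.289 CPM and was not tested, and Keap1, which encodes the protein that directs NRF2 to degradation), 6 were tested. All 6 were higher in BM than in WT, with a median log2 fold change of 0.40 against 0 over all tested genes, of which 32.1% were higher. Nfe2, the erythroid and megakaryocytic partner p45, was at 91.1 ± 9.37 CPM in WT, 119 ± 5.07 in Mixed, 93.1 ± 4.26 in KO and 203 ± 4.59 in BM (SD, n = 3), 2.23-fold higher in BM than in WT (edgeR adjusted p = 1.53e-12). It was also 1.31-fold higher in Mixed than in WT (adjusted p = 0.00133), the single partner called there.

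Nfe2l2, which encodes NRF2, was at 118 to 128 CPM in WT and 147 to 149 CPM in KO without overlap, 1.2-fold higher in KO (log2 0.26, SE 0.0549, edgeR adjusted p = 0.00055). Nfe2l1, which encodes the related activator NRF1, was 1.18-fold lower in KO (adjusted p = 0.0297). Bach1, a haem-sensing repressor that pairs with small Mafs, was at 20.4 to 22 CPM in WT and 15.8 to 17.7 in KO, 1.25-fold lower (adjusted p = 0.0102), and was 1.35-fold higher in BM than in WT (adjusted p = 0.000273).

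Bach2, a related repressor known from lymphocytes, was low: 0.335 to 0.564 CPM in WT, 0.946 to 2.03 in KO and 1.68 to 3.74 in BM. It was 3.24-fold higher in KO (adjusted p = 0.00905) and 5.7-fold higher in BM than in WT (adjusted p = 0.000107). Keap1 was 1.28-fold higher in BM (adjusted p = 3.93e-05) and not called in KO (log2 0.04, SE 0.0638, adjusted p = 0.684). Of the 6 tested genes 2 were thus higher, 2 lower and 2 not called in KO against WT, with a median log2 fold change of 0.03 against -0.03 over all tested genes. Of those, 18.2% were higher and 19.9% lower in KO.

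**Figure D4:**
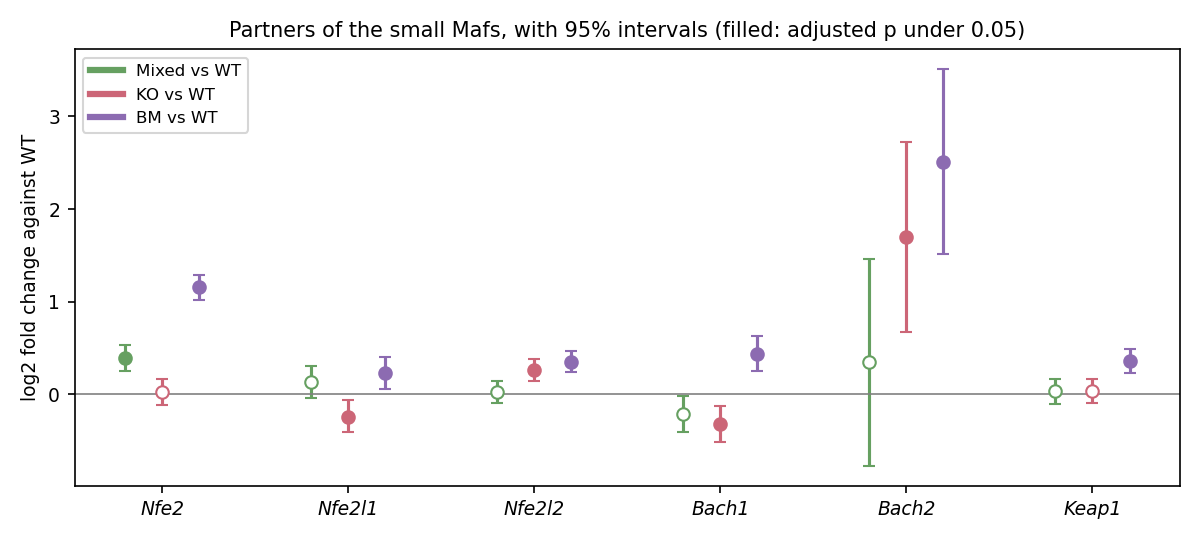
Log2 fold change against WT of 6 partner and regulator genes of the small Mafs in Mixed, KO and BM, with unadjusted 95% intervals; filled points had an adjusted p under 0.05. All 6 were higher in BM, led by Bach2 at 2.51 and Nfe2 at 1.15, and in KO 2 were higher and 2 lower.

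Genes known as targets of NRF2 and small Maf dimers moved in both directions. Of 22 listed genes 21 were tested, and in KO against WT 7 were higher, 6 lower and 8 not called, with a median log2 fold change of -0.11 against -0.03 over all tested genes. Of those, 18.2% were higher and 19.9% lower in KO. Slc7a11, the cystine transporter subunit, was 2-fold higher in KO (edgeR adjusted p = 0.0363), and Taldo1, an enzyme of the pentose phosphate pathway, was at 1490 CPM on average in KO and 811 in WT (1.83-fold, adjusted p = 8.47e-12). Abcc1, which exports glutathione conjugates, was 1.83-fold lower (adjusted p = 2.16e-06).

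In BM against WT 5 of these targets were higher and 9 lower, with a median of -0.2 against 0. Over all tested genes 32.1% were higher and 31.9% lower, so the count of calls does not stand out. Txnrd1, a thioredoxin reductase, was 2.08-fold lower (adjusted p = 7.68e-10), Osgin1 1.97-fold lower (adjusted p = 5.29e-05) and Srxn1, which reactivates peroxiredoxins, 1.88-fold lower (adjusted p = 0.000862). In Mixed against WT none was higher and 2 were lower by edgeR: Hmox1, the haem oxygenase that BACH1 represses, by 1.32-fold (adjusted p = 0.0435) and Gsr, glutathione reductase, by 1.19-fold (adjusted p = 0.0495). There 4.21% of all tested genes were higher and 3.87% lower.

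Of 8 genes known as targets of p45 NF-E2 with small Mafs in red cells and platelets, 7 were tested. None was called between KO and WT or between Mixed and WT by edgeR, and 5 were lower and 1 higher in BM than in WT. Over all tested genes 38.1% were called between KO and WT and 8.07% between Mixed and WT, and 31.9% were lower and 32.1% higher in BM. The 1 higher gene was Tbxas1, at 60.5 CPM on average in BM and 2.77 in WT. The lower ones included the globins Hbb-bt (1.52 CPM in BM and 255 in WT on average, edgeR adjusted p = 8.1e-06), Hbb-bs (adjusted p = 9.05e-06) and Hba-a1 (adjusted p = 2.6e-05). Globins mark red cells, and Hbb-bt is also in the erythroid sum given above, so this is not a separate result.

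Of 7 genes reported to depend on cMaf in macrophages or T cells, Adgre1 and Vcam1 alone had enough counts to be tested. Adgre1, which encodes the macrophage protein F4/80, was at 185 CPM on average in WT, 231 in Mixed, 196 in KO and 315 in BM. It was 1.71-fold higher in BM than in WT (edgeR adjusted p = 2.15e-09), where Maf was lower, and was not called in KO (log2 0.08, adjusted p = 0.371). Vcam1, an adhesion molecule of macrophages of the erythroblastic island, was not called in any comparison, with an adjusted p of 0.0552 in Mixed against WT.

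The genes whose profile over the 12 libraries was most like each Maf gene were found by the root mean square distance of log2 CPM, after each gene was centred on its own mean, among 9763 genes. For Maf they were C3ar1 (0.195), which encodes the receptor of complement C3a, Ncl (0.198), which encodes nucleolin, Kctd1 (0.205) and Nop58 (0.218), a nucleolar protein gene of ribosome formation, where the median distance was 0.843. C3ar1 averaged 25 CPM in WT, 15.9 in Mixed, 18.6 in KO and 6 in BM. Ncl, at a far higher level, averaged 858, 616, 665 and 230 CPM in the same order.

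For Mafg the closest were Cox14 (0.0458), Dpm3 (0.0661), Atraid (0.0674) and Sppl2b (0.0679), with a median of 0.336 over all candidates. Cox14, a factor for assembly of cytochrome c oxidase, averaged 74.9 CPM in WT, 79.4 in Mixed, 66.2 in KO and 95.3 in BM. For Mafk they were Klf6 (0.114), a zinc-finger factor of the immediate early list, Mbnl1 (0.116), a splicing regulator, Zfp386 (0.117) and Extl3 (0.121), against a median of 0.463. For Maff, whose counts were few, they were Far2 (0.238), Peli1 (0.26), Eif2ak2 (0.284) and Agpat1 (0.285), against a median of 0.548. Like Maff, all 4 were higher in KO than in Mixed, with log2 fold changes of 0.48 to 1.12, while between BM and Mixed theirs were 0.03 to 0.08 and not called. The genes were picked for their likeness to Maff in these libraries, so this adds no support to its call.

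Among the 4 genes themselves, Mafg and Mafk were the closest pair, at a distance of 0.274, and Maf and Mafk the farthest apart, at 1.15. A distance carries no direction, but in the comparisons above Maf was lower and Mafg and Mafk were higher in bone marrow than in each fetal liver group. All these distances rest on the same 12 libraries.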

How the data were processed

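The authors deposited a table of estimated counts per gene and a table of TPM for 12 libraries, and a CPM table that was not used here. The submitters' processing notes name mm10 as the build and, without roles, Salmon, STAR, featureCounts, Subread and DRAGEN. Per the labels' protocols, the kit was Takara's SMARTer Ultra Low, and such libraries carry no strand information. Since 28.5% of nonzero values were fractional (tolerance 1e-06), the deposited estimated counts were rounded first. After removal of 287 repeated Ensembl rows, edgeR's filterByExpr (minimum count 10, minimum total 15) kept 14618 of 55487 genes.

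One edgeR quasi-likelihood fit (TMM, robust, a mean per title group, common biological coefficient of variation 0.0917) gave all 6 comparisons, with two-sided p-values adjusted by the Benjamini-Hochberg method over all tested genes and a threshold of 0.05. Intervals are at 95% and unadjusted. Gene lists are described by counts and medians, with no set test. The authors' deposited TPM values served to compare levels between genes and, as log2 with a pseudocount of 1 or 0.1, as an alternative with limma for genes at 1 TPM or more in 3 libraries. Other alternatives were DESeq2 size factors, DESeq2, no filter, only the groups compared, a replicate block, the embryonic day and leaving out each library. Text genes were the 4 Maf genes, Zeb2, all partners, up to 3 called members per list and comparison (mean log2 CPM of 1 or more), and the 4 nearest profiles per gene. On counts simulated with its own dispersions, the fit recovered 87% of 2-fold and 96% of 4-fold changes between KO and WT. It made 15 false calls among 14178 genes. Smaller changes, like those of Maf and Mafg between fetal liver groups, were not simulated. The members and lists were chosen with earlier results of these data known. Other Maf family genes are not reported here. Positions are from GENCODE (GRCm38, which mm10 denotes) and upstream sequences from RefSeq (GRCm38.p6), which matched 3 of the 4 genes. Same-numbered libraries of different groups did not deviate together (correlation -0.0353 to 0.0693 over 18 pairs, across genes), so the numbers were not taken to pair them. Tools were edgeR 4.0.16, DESeq2 1.42.0 and limma 3.58.1 in R 4.3.3.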

Additional observations from a re-analysis of the deposited data

How the results depend on the processing

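Of 468 values recomputed under the alternatives for the 24 combinations of gene and comparison, 418 kept their direction and their side of the threshold, and 13 combinations did so throughout. The Maf, Mafg and Mafk differences of bone marrow were among these. Maf in KO against WT (log2 -0.45) was called without a filter (-0.42, adjusted p = 0.0341) and with the 2 groups alone (-0.42, 0.0476), and ran from -0.66 to -0.31 over fits without 1 library. Maf in Mixed against WT (-0.57) was called with DESeq2 size factors (-0.58, 0.0498), DESeq2 (-0.58, 0.0299), no filter (-0.56, 0.00893) and the 2 groups alone (-0.57, 0.0218), and ran from -0.69 to -0.45. Mafg in KO against WT (-0.17) lost its call with DESeq2 size factors (-0.15, 0.0671), DESeq2 (-0.15, 0.0651), no filter (-0.14, 0.208), the 2 groups alone (-0.14, 0.12) and the embryonic day (-0.09, 0.491), and ran from -0.22 to -0.13. Mafg in KO against Mixed lost its call with the embryonic day (-0.21, 0.243). Maff in KO against Mixed lost its call with no filter (1.11, 0.0988), the embryonic day (0.64, 0.609), DESeq2 (1.12, 0.0511) and TPM (0.18 and 0.35, 0.526 and 0.534), and ran from 0.97 to 1.24. Changes of direction touched values that were not called. They were Mafk in KO against WT (-0.09 and -0.11 on TPM, -0.13 to 0.16 without 1 library), Maf in KO against Mixed (-0.09 and -0.12 on TPM, -0.08 to 0.26) and Mafk in KO against Mixed (-0.05 with the day, -0.13 and -0.15 on TPM, -0.15 to 0.14). The TPM values just named did not change direction relative to the median of all genes. That median was -0.14 and -0.17 in KO against WT and -0.18 and -0.21 in KO against Mixed. Relative to it, Mafk was at 0.05 and 0.06 in each comparison, and Maf in KO against Mixed was at 0.09 at each pseudocount. Other values that were not called did turn relative to the median. Mafg in Mixed against WT was at 0.15 on counts and -0.03 on TPM at each pseudocount. Maff in BM against Mixed was at 0.25 on counts and at -0.01 and -0.03 on TPM. Without 1 library, Mafk in Mixed against WT ran from -0.02 to 0.06, Maff in BM against Mixed from -0.03 to 0.42 and Maff in BM against KO from -1.13 to -0.68. The causes were not tested. With a replicate block no call changed, and the Mafg value of KO against WT was -0.17 (adjusted p = 0.0446). The fit with the embryonic day rests on WT 1 for KO. Its count of called genes was 3715 of 14112 in KO against WT, 399 in Mixed against WT and 1978 in KO against Mixed, against 5565, 1180 and 5365 of 14618 in the main results. For Maff, counts of 9 to 30 per library limit the precision.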
